A study of Arabidopsis thaliana with 21 samples.

Results

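SPCH (SPEECHLESS, AT5G53210) and FMA (the annotation's symbol for FAMA, AT3G24140) are the basic helix-loop-helix (bHLH) transcription factors at the start and at the end of the stomatal lineage of Arabidopsis thaliana. The platform annotation gave 1 probe set to each gene, 248247_at to SPCH and 257247_at to FMA. The 2 genes were chosen with earlier results of these data known, and the annotation set which probe sets stand for them. They are 2 of the 13356 genes with a named probe set, and their tests were run among all 22746 probe sets that are no controls. Chromosome positions are left out, since the annotation used here gives no build that the array values share.

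The values come from whole seedlings of ecotype Col-0 on 21 one-sample Affymetrix arrays, in 7 groups of 3 biological replicates. All seedlings spent 4 days at 4 °C, 3 h in white light and then 4 days in darkness at 21 °C, on medium without sucrose. Wild-type seedlings were collected at that point (WT_D0), after 1 h or 18 h more of darkness (WT_D1, WT_D18), or after 1 h or 18 h of continuous red light (WT_R1, WT_R18). A mutant of PIF3, a bHLH factor that binds phytochrome, was collected at the same first dark times (pif3_D0, pif3_D1), and its allele is not given in the labels. The labels call the dark groups etiolated and the red light groups deetiolated seedlings. PIF3 itself was not analysed here, so that the genotype rests on the labels.

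Stomata, the pores of the leaf and cotyledon epidermis, arise from protodermal cells through a fixed series of divisions. SPCH starts the series by driving the asymmetric divisions that found the lineage, MUTE ends those divisions and turns a meristemoid into a guard mother cell, and FAMA controls the last symmetric division and the change into guard cells. Each of these bHLH factors works as a dimer with SCRM (ICE1) or SCRM2. Secreted peptides of the EPF family act through ERECTA family receptors and TMM on a MAP kinase cascade, which restrains SPCH. Light is known to promote stomatal development through phytochromes and cryptochromes, and COP1 represses it in darkness. Whole seedlings hold few lineage cells, and in such bulk samples more cells of a type and more transcript per cell cannot be told apart.

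SPCH gave a signal near 0 in dark-grown wild type and its highest group mean after 18 h of red light. Values here are quantile-normalized intensities, in array units, a scale that runs below 0 (9.78% to 12.1% of the deposited values of an array). In WT_D0 the SPCH probe set read -1.704, -7.475 and -10.85 units in replicates 1 to 3. In WT_D1 it read -28.62, -5.805 and -12.71 units, and in WT_D18 -8.642, 7.574 and -7.124 units. All but 1 of the 9 wild-type dark arrays thus lay below 0, so that no level above 0 was measured in WT_D0 or WT_D1.

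After 1 h of red light SPCH read 28.88, 2.904 and 0.2094 units. The first replicate stood apart from the other two, which lay close to 0. After 18 h of red light the readings were 34.78, 21.03 and 51.85 units. All 3 WT_R18 arrays lay above every dark array, pif3 included, although the lowest of them lay below the highest WT_R1 array. How many of all probe sets lay above every dark array was not counted, and 19.6% lay higher in WT_R18 than in WT_D18 without overlap. In pif3_D0 SPCH read 2.742, 20.23 and -7.141 units and in pif3_D1 -0.7177, 2.323 and -2.312 units, so that 3 of the 6 mutant arrays lay below 0.

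The control probe sets for bacterial transcripts give a view of what such readings mean. Over 27 of these probe sets and 21 arrays (567 values) the median was 2.57 units, and the values from percentile 5 to percentile 95 ran from -12.8 to 12.6 units. Of the 567 values, 2 reached the lowest WT_R18 value of SPCH, 21.03 units. Whether any bacterial transcript was added to these samples is not given in the sources used here, and background differs between probe sets, so these values are a description.

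FMA was measured above 0 in all 21 arrays and was also highest after 18 h of red light. In WT_D0 it read 42.21, 16.98 and 28.7 units, the widest spread of its groups. In WT_D1 it read 22.37, 29.96 and 33.01 units and in WT_D18 21.51, 35.8 and 30.2 units. The 3 wild-type dark groups overlapped fully.

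After 1 h of red light FMA read 37.35, 35.1 and 26.27 units, within the range of the dark arrays. After 18 h it read 52.52, 47.73 and 53.73 units, and these 3 arrays lay above all other 18 arrays, the highest of which was at 42.21 units. Of all probe sets tested, 8.81% had their 3 WT_R18 values above all other 18 arrays in the same way. In the mutant FMA read 36.78, 41.4 and 35.78 units in pif3_D0 and 37.26, 36.84 and 29.58 units in pif3_D1, inside the wild-type dark range.

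**Figure D1:**
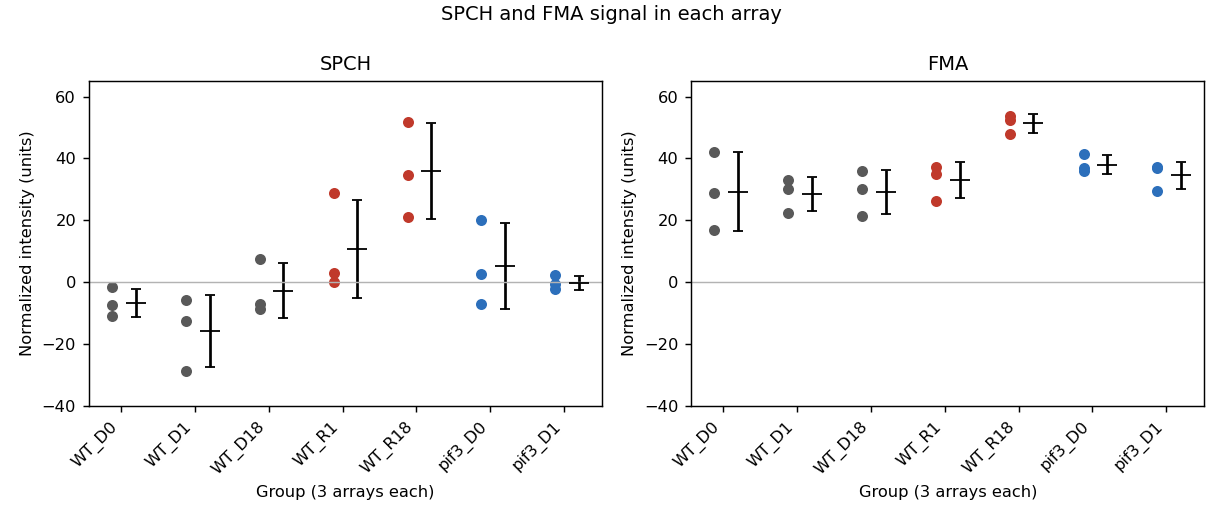
Normalized intensity of SPCH (left) and FMA (right) in each array by group, with points for the 3 replicates and bars for the mean and SD; the line marks 0. SPCH lay below 0 in 8 of 9 wild-type dark arrays and between 21.03 and 51.85 units in WT_R18, and FMA lay between 47.73 and 53.73 units in WT_R18, above its other 18 arrays.

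The order of the group means was alike for the 2 genes at both ends. For SPCH it ran, from low to high, WT_D1 (-15.7 ± 11.7 units, SD, n = 3 as in all groups), WT_D0 (-6.68 ± 4.63), WT_D18 (-2.73 ± 8.96), pif3_D1 (-0.236 ± 2.35), pif3_D0 (5.28 ± 13.9), WT_R1 (10.7 ± 15.8) and WT_R18 (35.9 ± 15.4). Every pair of neighbours in this order overlapped, WT_R1 and WT_R18 included. For FMA it ran WT_D1 (28.4 ± 5.48 units), WT_D18 (29.2 ± 7.20), WT_D0 (29.3 ± 12.6), WT_R1 (32.9 ± 5.86), pif3_D1 (34.6 ± 4.31), pif3_D0 (38.0 ± 3.00) and WT_R18 (51.3 ± 3.17). Its only neighbours that did not overlap were pif3_D0 and WT_R18. Among the lower 6 groups WT_D1, at 22.37 to 33.01 units, lay below pif3_D0, at 35.78 to 41.4 units. These 2 groups differ in both genotype and time, and the share of all probe sets with such a gap was not counted. At the same dark time, D0 or D1, mutant and wild type overlapped for FMA.

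Both probe sets were dim, which sets how far sizes can be read. The rank of SPCH within an array ran from percentile 0.616 to 19.8 of the probe sets in wild-type darkness and from 31.8 to 45.2 in WT_R18. FMA ranked from percentile 28.8 to 42.0 in wild-type darkness and from 43.9 to 45.7 in WT_R18. Log2 changes below were taken after values under 0 were set to 0 and 16 units were added. A change of SPCH against darkness therefore rests in size on that offset, and its intensities, with dark means below 0, have no ratio. The floor also gave WT_D0 and WT_D1 no spread for SPCH on the log2 scale. Both groups enter the spread that limma pools over the 7 groups, and so the SE and p of SPCH.

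Red light for 18 h raised both genes over the equally old dark seedlings. SPCH rose by a log2 change of 1.47 (SE 0.34, 95% interval 0.74 to 2.20, limma adjusted p = 0.0033), from -2.73 ± 8.96 to 35.9 ± 15.4 units, and all 3 WT_R18 arrays lay above all 3 WT_D18 arrays. FMA rose by 0.59 (SE 0.17, 0.23 to 0.95, limma adjusted p = 0.013), from 29.2 ± 7.20 to 51.3 ± 3.17 units, again with no overlap. Thus 2 of 2 genes were called higher, at an adjusted p under 0.05, where 14.1% of all probe sets were called higher and 34.4% in either direction. As the genes were chosen with earlier results known, 2 of 2 is no test against these shares. Groups without overlap, WT_R18 higher, were found for 19.6% of probe sets, and the median change of all probe sets was -0.04. Among the 10023 probe sets with a mean under 50 units, where both genes belong, 7.99% were called higher.

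The call of SPCH at 18 h stood in all 17 other fits, in which its change ran from 0.58 with an offset of 64 to 4.08 with an offset of 1. FMA kept its call in 15 of them. It lost it with no scaling between arrays (log2 change 0.69, limma adjusted p = 0.24) and without WT_D18 replicate 1, its lowest array in that group (0.46, limma adjusted p = 0.068). An exact permutation test of 3 arrays against 3 cannot go below p = 0.1, which both genes reached. Against the 9 wild-type dark arrays of all 3 times, a reference chosen after the data were seen, the normalized intensity of WT_R18 was 44.3 units higher for SPCH and 22.3 units higher for FMA. The two-sided exact permutation p was 0.0045 for each, the smallest that 220 assignments can give, and 0.009 adjusted over the 4 such tests made. All 3 WT_R18 arrays had already been seen above these 9 arrays, so this p was fixed by the choice of reference. It also treats 3 dark times as 1 group, and it adds no support to the fit above.

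**Figure D2:**
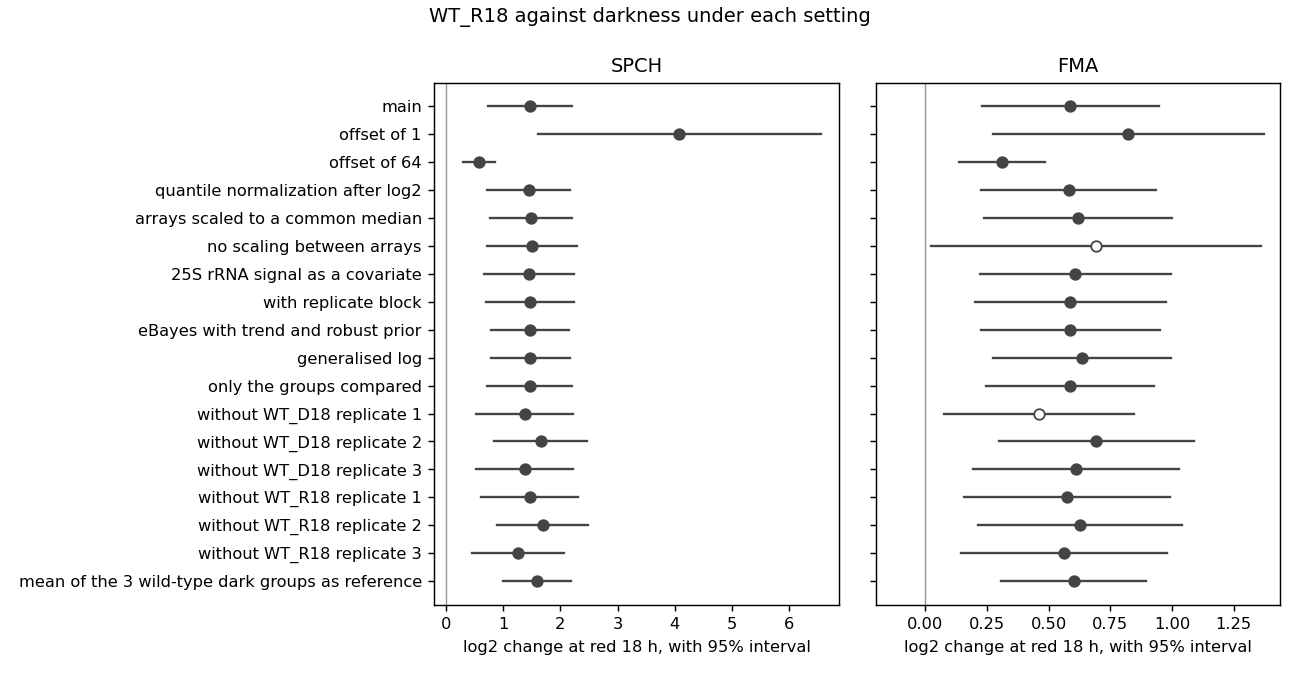
Log2 change of SPCH (left) and FMA (right) after 18 h of red light in the reported fit (main) and in 17 other fits, as points with 95% intervals on axes of different range; filled points were called at a limma adjusted p under 0.05. SPCH was called in all of them and FMA in all but the fit with no scaling between arrays and the fit without WT_D18 replicate 1.

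At 1 h of red light neither gene was called, where 4.94% of probe sets were. SPCH had a log2 change of 0.58 (SE 0.34, 95% interval -0.15 to 1.31, limma adjusted p = 0.48), with means of 10.7 ± 15.8 units in WT_R1 and -15.7 ± 11.7 in WT_D1. The 3 WT_R1 arrays lay above the 3 WT_D1 arrays, as they did for 8.45% of probe sets. The value leaned on WT_R1 replicate 1, at 28.88 units: without it the change was 0.13 (limma adjusted p = 0.93). A generalised log, which keeps values below 0 apart, gave 1.10 (95% interval 0.40 to 1.79, limma adjusted p = 0.071). Against all 9 wild-type dark arrays the mean of WT_R1 was 19 units higher (exact permutation p = 0.018, two-sided, adjusted p = 0.024), and limma's adjusted p for that reference was 0.33. That reference was chosen after the data were seen and joins 3 dark times, which the permutation p does not cover. The adjustment of the permutation p runs over 4 tests, among them those of WT_R18, whose p was fixed by that choice. No conclusion is drawn from the adjusted permutation p.

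FMA changed less at 1 h, by 0.14 on the log2 scale (SE 0.17, 95% interval -0.22 to 0.50, limma adjusted p = 0.83), and its WT_R1 and WT_D1 arrays overlapped. Against the 9 dark arrays the difference was 3.93 units (exact permutation p = 0.45, two-sided). In the reported fit the intervals at 1 h hold 0 but reach up to 1.31 for SPCH and 0.50 for FMA. For SPCH the interval lay above 0 with the generalised log and without WT_R1 replicate 3, with no call. These arrays thus do not show either gene to be unresponsive at 1 h.

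The 2 red light changes were then set against each other. The later change was larger by 0.89 for SPCH (SE 0.48, 95% interval -0.15 to 1.92, limma adjusted p = 0.25) and by 0.45 for FMA (SE 0.24, -0.06 to 0.96, limma adjusted p = 0.23), and neither was called, where 18.8% of probe sets were. Without WT_R1 replicate 1 the difference for SPCH was 1.34 (limma adjusted p = 0.026), the only 1 called of 12 fits without 1 array. Without WT_R1 replicate 3 it was 0.60 (limma adjusted p = 0.48). A generalised log gave 0.38 (limma adjusted p = 0.65). Between WT_R18 and WT_R1 directly, SPCH was 1.07 higher (SE 0.34, limma adjusted p = 0.03) although 1 array of WT_R1 lay inside the WT_R18 range. These groups differ in age as well as in hours of red light. Fitted on these 2 groups alone, SPCH had an SE of 0.48 and was not called (limma adjusted p = 0.2). FMA was 0.47 higher (SE 0.17, limma adjusted p = 0.053), with no overlap. In this comparison calls covered 26.3% of probe sets (11.9% up and 14.3% down), and 17.5% did not overlap with WT_R18 higher. The call of SPCH was lost when any of WT_R1 replicates 2 and 3 or WT_R18 replicates 1 and 3 was left out (limma adjusted p = 0.071 to 0.15), and it was 0.24 with the 25S rRNA control as a covariate.

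Neither gene passed the test between pif3 and wild type in darkness. As the mean of both dark times, SPCH was 0.27 higher in pif3 (SE 0.24, 95% interval -0.25 to 0.78, limma adjusted p = 0.69) and FMA 0.24 higher (SE 0.12, -0.01 to 0.49, limma adjusted p = 0.37). In this comparison 1.78% of probe sets were called. These intervals leave room for a higher level of either gene in the mutant. With a generalised log SPCH was 0.58 higher in this mean (95% interval 0.09 to 1.07, limma adjusted p = 0.25).

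At D0 alone, where 0.295% of probe sets were called, the log2 difference was 0.47 for SPCH (SE 0.34, limma adjusted p = 0.65) and 0.29 for FMA (SE 0.17, limma adjusted p = 0.53), and mutant and wild type overlapped for both. At D1 alone, where 0.0396% were called, it was 0.07 for SPCH (limma adjusted p = 1) and 0.19 for FMA (SE 0.17, limma adjusted p = 0.89). The SPCH arrays did not overlap at D1: the mutant lay at -2.312 to 2.323 units and wild type at -28.62 to -5.805 units. Groups without overlap, pif3 higher, were found for 7.47% of probe sets. Most of that gap lies below 0, where the floor removes it, and a generalised log that keeps such values apart gave 0.65 (limma adjusted p = 0.75). The differences between D1 and D0 in the effect of the mutation were -0.40 for SPCH and -0.10 for FMA, each with a limma adjusted p of 1. For that difference limma called 0% of probe sets, with 857 at an unadjusted p under 0.05. The red 1 h, pif3 D1 and pif3 mean comparisons share the 3 WT_D1 arrays, which held the lowest mean of either gene.

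Between the dark times no difference of either gene passed the test. From WT_D0 to WT_D18 the log2 change was 0.19 for SPCH (SE 0.34, 95% interval -0.54 to 0.92, limma adjusted p = 0.89) and 0.02 for FMA (SE 0.17, -0.34 to 0.38, limma adjusted p = 1), where 0.044% of probe sets were called. From WT_D0 to WT_D1 it was 0 for SPCH, with all 6 arrays at the floor, and 0.004 for FMA, and limma called 0% of probe sets, with 1693 at an unadjusted p under 0.05. In pif3 from D0 to D1 it was -0.40 for SPCH and -0.10 for FMA, with limma adjusted p of 0.68 and 0.89, where 0.185% of probe sets were called. In the reported fit neither gene had an unadjusted p under 0.05 in any dark or pif3 comparison. Some other fits gave intervals above 0, none of them called. For FMA at pif3 D0 the interval without WT_D0 replicate 1 was 0.16 to 0.82 (limma adjusted p = 0.26). Over the 6 fits without 1 array that change ran from 0.08 to 0.49.

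**Figure D3:**
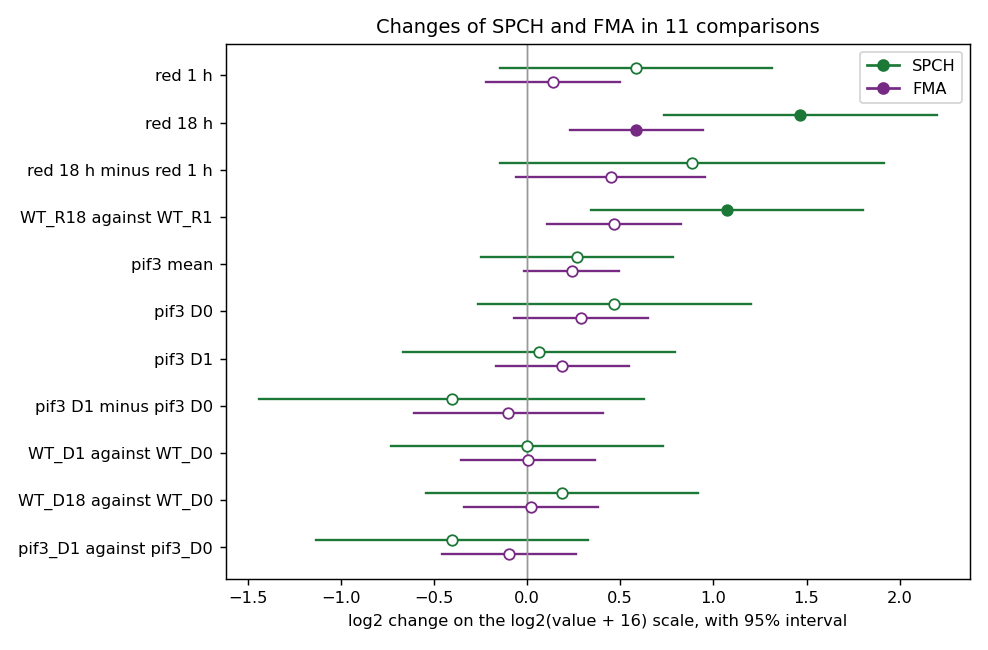
Log2 changes of SPCH (green) and FMA (purple) on the log2(value + 16) scale in 11 comparisons, with 95% intervals; filled points were called at a limma adjusted p under 0.05. Both genes were called after 18 h of red light, at 1.47 and 0.59, and SPCH also between WT_R18 and WT_R1, at 1.07.

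Across the 21 arrays their log2 values correlated at r = 0.72, and without the 3 WT_R18 arrays r was 0.44 (n = 18). After the group means were taken away, r was 0.38 over the 21 arrays. The arrays share RNA, labelling and scaling between the probe sets, 11 of the 21 SPCH values stand at the floor, and the arrays of a group are no independent points, so these are descriptions with no test.

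**Figure D4:**
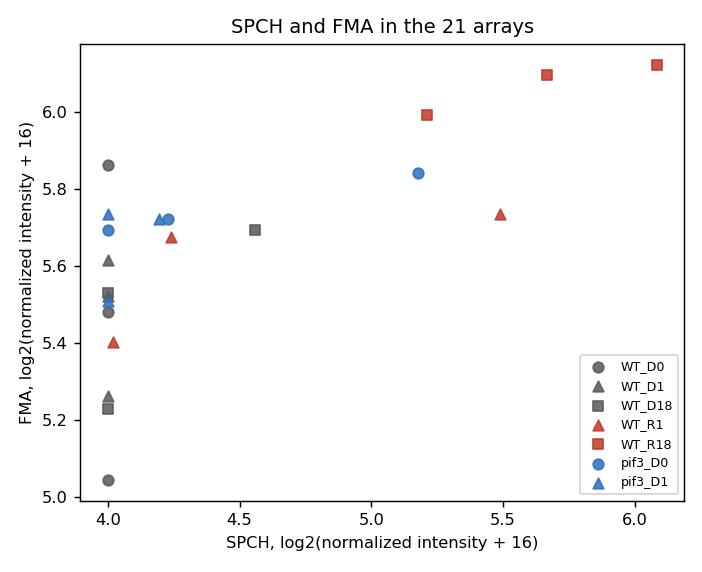
Log2(normalized intensity + 16) of FMA against SPCH in the 21 arrays, by group (grey wild-type darkness, red wild type in red light, blue pif3). The 3 WT_R18 arrays stand at the upper right, 11 arrays stand at the SPCH floor, and r was 0.72 over all arrays and 0.44 without WT_R18.

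Of 3532 named genes that were bright enough and varied between groups (a mean of at least 50 units and group means that span at least 0.5 on the log2 scale), the 5 whose log2 values over the 21 arrays were most like SPCH were AT4G29240 (r = 0.89), AT1G71900 (0.88), AT3G29230 (0.87), AT3G09580 (0.87) and AT2G21860 (0.86). AT2G21860 went from 87.3 ± 2.82 units in WT_D18 to 304.1 ± 14.9 in WT_R18, and AT3G09580 from 92.4 ± 25.1 to 327.8 ± 17.3. The gene table gives these 5 loci no symbol other than the locus name. Most like FMA were GLR3.6 (r = 0.82), AT1G27385 (0.80), AT4G24090 (0.79), LPA1 (0.78) and AT5G03900 (0.77). GLR3.6 encodes a glutamate receptor-like channel and went from 35.3 ± 2.71 to 84.8 ± 6.83 units. LPA1, a factor of photosystem II assembly, went from 141.1 ± 19.6 to 272.4 ± 29.2 units. The lists of the 2 genes had no member in common. Likeness was measured over the WT_R18 arrays too, so that a rise of these genes at 18 h follows in part from how they were chosen and is given with no test.

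Other parts of the stomatal pathway were measured thinly: of 37 further genes listed for it, 4 had a named probe set. MUTE, the bHLH factor between SPCH and FAMA, was below 0 in 19 of 21 arrays and reached at most 4.06 units. In WT_R18 it averaged -1.88 ± 5.52 units, in WT_D18 -14.0 ± 10.5 units, and its log2 change of 0.11 was not called (limma adjusted p = 0.22). No level above 0 that repeats between replicates was thus measured for MUTE.

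EPFL9 (STOMAGEN) encodes a secreted peptide, made in inner leaf tissue, that promotes stomata by competing with the EPF peptides. It was well above 0, from 93.0 to 243.8 units over the 21 arrays. WT_R1 had 218 ± 23.0 units against 174.5 ± 37.2 in WT_D1 (log2 change 0.31, limma adjusted p = 0.44), and WT_R18 146.1 ± 33.9 against 120.1 ± 23.6 in WT_D18 (0.25, limma adjusted p = 0.31). WT_R18 was lower than WT_R1 by a log2 change of -0.55 (limma adjusted p = 0.026), opposite to SPCH in that comparison. That call was lost without WT_R1 replicate 1 (-0.47, limma adjusted p = 0.095), WT_R1 replicate 3 (-0.57, 0.054) or WT_R18 replicate 2 (-0.37, 0.13), with no scaling (0.38), and with the 25S rRNA covariate (0.15). WT_R18 and WT_R1 differ in age as well as in hours of red light. Each taken against its own dark time, the 18 h change of EPFL9 differed from the 1 h change by -0.06 (limma adjusted p = 0.93).

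ATBRXL2, a BREVIS RADIX-like protein of the polarity complex in asymmetrically dividing lineage cells, was the only 1 of the 4 called at 18 h and it was lower, as were 20.3% of all probe sets. It read 31.1 ± 3.01 units in WT_D18 and 10.4 ± 2.44 in WT_R18, with no overlap, as for 28.4% of all probe sets, and its log2 change was -0.84 (SE 0.14, limma adjusted p = 0.00025). With no scaling between arrays its limma adjusted p was 0.079, and because WT_R18 lay under the offset its change ran from -1.51 to -0.35 over 9 other settings. SOL1, a CXC-domain protein that acts with SOL2 in lineage fate transitions, read 43.8 ± 5.69 units in WT_D18 and 58.6 ± 5.73 in WT_R18 (log2 change 0.32, limma adjusted p = 0.054). That value lies at the threshold: SOL1 was called higher at 18 h in 4 of 9 other settings (limma adjusted p from 0.026 to 0.039) and without WT_D18 replicate 3 (0.39, limma adjusted p = 0.042). Between WT_R1 and WT_R18 it rose by 0.49 (limma adjusted p = 0.0068), a call lost with no scaling (limma adjusted p = 0.48). ATBRXL2 was lower in WT_R18 than in WT_R1 by a log2 change of -0.41 (limma adjusted p = 0.044), which passed in 2 of 9 other settings and, of the 6 fits without 1 array, in the one without WT_R18 replicate 1. The other 5 gave limma adjusted p from 0.055 to 0.15. In that comparison the 4 genes thus gave 1 call higher and 2 lower, EPFL9 and ATBRXL2, where 11.9% of all probe sets were higher and 14.3% lower, with a median change of -0.15. The 4 genes gave 0 calls higher and 1 lower at 18 h with a median change of 0.18, and none was called at 1 h or for the pif3 mean, where the medians were 0.003 and -0.07. ATBRXL2 itself stood at -0.44 at 1 h (95% interval -0.74 to -0.14, limma adjusted p = 0.11).

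Of 8 loci listed as close bHLH relatives of SPCH and FAMA, 5 were measured, MUTE among these. None was called in any red light comparison with all arrays, nor in 9 other settings at 1 h, at 18 h or between WT_R18 and WT_R1. Leaving out 1 array gave 3 calls. At 18 h AT4G01460 was called higher without WT_R18 replicate 2 (0.64, limma adjusted p = 0.011) and AT5G65320 without WT_D18 replicate 2 (0.52, limma adjusted p = 0.046). Between WT_R18 and WT_R1 AT3G61950 was called higher without WT_R18 replicate 1 (0.64, limma adjusted p = 0.045). With all arrays at 18 h the other 4 had log2 changes of 0.33 (AT1G22490, named bHLH094 in the gene table), 0.30 (AT3G61950), 0.38 (AT4G01460) and 0.31 (AT5G65320), with limma adjusted p from 0.17 to 0.38. AT4G01460 was the brightest of their probe sets, at 84.4 ± 29.5 units in WT_R18 and 59.9 ± 17.2 in WT_D18. The median change of the 5 was 0.31 at 18 h, against -0.04 for all probe sets, and 0 at 1 h.

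Because the lineage advances by divisions, genes of the cell cycle were listed beside it, and 3 of 30 were measured. All 3 were called higher at 18 h, where 14.1% of all probe sets were. AUR2, an Aurora kinase of mitosis, rose from 67.5 ± 3.02 units in WT_D18 to 148.5 ± 19.8 in WT_R18 (log2 change 0.97, limma adjusted p = 1.5e-05). AUR1, its close relative, rose by 0.50 (limma adjusted p = 6.4e-06), and MCM7, a subunit of the replicative helicase, rose by 0.35 (limma adjusted p = 0.019). At 1 h AUR2 stood at -0.23, AUR1 at -0.10 and MCM7 at -0.07, and none was called. With no scaling between arrays AUR1 (limma adjusted p = 0.29) and MCM7 (0.41) lost their call at 18 h, and MCM7 also without WT_D18 replicate 2 (0.058) or WT_R18 replicate 3 (0.094). In the pif3 mean none of the 3 was called.

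**Figure D5:**
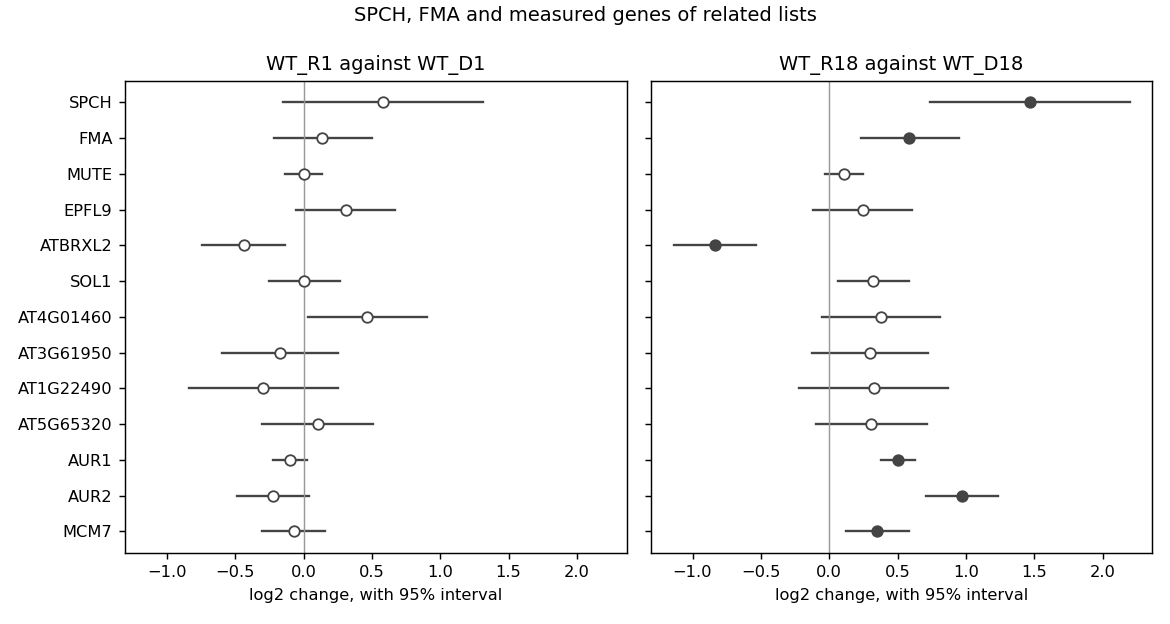
Log2 changes after 1 h (left) and 18 h (right) of red light, with 95% intervals, for SPCH, FMA, the 4 measured stomatal pathway genes, the 4 other measured relatives and 3 cell cycle genes; filled points were called at a limma adjusted p under 0.05. At 18 h SPCH, FMA, AUR1, AUR2 and MCM7 were called higher and ATBRXL2 lower, and at 1 h none was called.

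Cell types could be checked only in part. No guard cell marker of 13, no epidermis marker of 8 and no vasculature marker of 6 had a named probe set, so the epidermal share of the samples was not analysed here. PYK10, a root and hypocotyl gene of seedlings, lay between 5879 and 7241 units in all arrays, and at 18 h its change was 0.14 (limma adjusted p = 0.049), a call lost in 6 of 9 other settings. EXPA7, an expansin of root hairs, had a change of 0.49 (limma adjusted p = 0.35). Of the chloroplast markers, RCA and PRK were 2.27 and 1.22 higher at 18 h and 0.23 and 0.30 higher at 1 h (limma adjusted p = 0.55 and 0.48), and the part of tissue make-up in the change of SPCH and FMA was not tested. HYH, a light-induced bZIP factor and the only measured gene of 11 listed for light signalling, rose by 2.40 at 1 h and by 3.41 at 18 h. Its level was 104.4 ± 16.5 units in WT_R1 and 7.02 ± 4.63 in WT_D1, with no overlap.

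Technical values differed between groups. Array medians of the deposited intensities ran from 36.1 to 102.9 units. The GAPDH control's signal ratio between its 3' and 5' ends, which rises as RNA degrades, was 1.3 to 1.39 in WT_R18 and 1.44 to 1.5 in WT_D18, and its part in the change of SPCH and FMA was not tested. The 25S rRNA control signal was 2650 to 3423 units in WT_R18, 365.2 to 4305 in WT_D18 and 127.9 to 465.8 in WT_R1. In WT_D1 it was 689 to 4776 units, with no overlap with WT_R1, so that this signal and 1 h of red light went together. With this rRNA signal in the fit the changes at 18 h were 1.45 for SPCH (limma adjusted p = 0.0073) and 0.61 for FMA (limma adjusted p = 0.018). At 1 h they were 0.63 for SPCH (limma adjusted p = 0.7) and 0.07 for FMA (limma adjusted p = 0.99).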

How the data were processed

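Biotin-labelled cRNA from 5 ug of total RNA of whole seedlings was hybridised 1 sample to an array, per the labels' protocols. The authors deposited a single intensity, not in logs, for each probe set of an array; the sources used here do not name the software or scaling, and detection calls were not used. Arrays had no common scale, so all 22810 probe sets were quantile normalized, values below 0 were set to 0, 16 was added and log2 was taken. Group means are given before the floor. All 7 group means were fitted to the 21 arrays with lmFit and eBayes (limma 3.58.1, R 4.3.3), with Benjamini-Hochberg adjustment over 22746 probe sets after 64 controls were left out, two-sided, and a call at an adjusted p under 0.05. The spread is that between biological replicates as labelled, and the number of arrays limits the precision.

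Names came from the platform's annotation, with symbols from RefSeq's TAIR10.1 genes. Of them 13513 had 1 gene, 503 had several and 8730 were not listed; the last 2 kinds stay unnamed. A gene was represented by its brightest probe set. The members and the gene lists were chosen with earlier results of these data known. Every measured member of the stomatal, guard cell and relatives lists could be named, up to 4 members called of each other list or the one with the smallest p, and the 5 genes most alike by Pearson's r over 21 arrays. No sequences of these genes were used here. The fit was tested on simulated data with known changes. Alternatives changed the offset, scaling, samples, covariates and prior; a generalised log (constant 32) and a pooled dark reference were added after seeing the data.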

Additional observations from a re-analysis of the deposited data

Results flagged for a closer look

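Of the genes measured beside SPCH and FMA, 5 had red light changes that differed between 1 h and 18 h by limma's test of the difference itself, which 18.8% of all probe sets passed. The difference on the log2 scale, 18 h minus 1 h, was 0.61 for AUR1 (adjusted p = 1e-04), 1.20 for AUR2 (adjusted p = 0.00018) and 2.04 for RCA (adjusted p = 9.8e-06). It was 1.01 for HYH (adjusted p = 0.012) and 0.92 for PRK (adjusted p = 0.018). AUR1 and AUR2 stood at -0.10 and -0.23 at 1 h and at 0.50 and 0.97 at 18 h. For SPCH and FMA the same difference was 0.89 and 0.45 and was not called.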

How the results depend on the processing

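SPCH at 18 h of red light stayed called in 11 of 11 other settings and in 6 of 6 fits without 1 array (1.25 to 1.69). FMA at 18 h was not called with no scaling between arrays (0.69) and ran from 0.46 to 0.69 without 1 array. Between WT_R18 and WT_R1, SPCH lost its call with an offset of 1 (2.73), no scaling (1.05), the 25S rRNA covariate (1.02) and only the groups compared (1.07), and ran from 0.79 to 1.52 without 1 array. FMA gained a call there with an offset of 64 (0.25), the generalised log (0.51) and only the groups compared (0.47). The SPCH difference between the changes at 18 h and 1 h was not called in the reported fit. It ran from 0.60 to 1.34 without 1 array, with 1 call in 12 such fits. Over 10 other settings it ran from 0.375 to 1.70, with 0 calls. Some changes turned sign without being called. For FMA these were WT_D1 against WT_D0 with an offset of 64 (-0.006) and the generalised log (-0.007), and with no scaling pif3_D1 against pif3_D0 (0.31) and the change of the pif3 effect from D0 to D1 (0.18). For SPCH the latter was -0.40 in the reported fit and 0.13 with the generalised log. Without 1 array FMA ran from -0.21 to 0.20 for WT_D1 against WT_D0, from -0.19 to 0.22 for WT_D18 against WT_D0 and from -0.30 to 0.11 for the change of the pif3 effect. The cause of these shifts was not tested.

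Probe sets called fell from 1124 to 165 at 1 h, from 7828 to 1997 at 18 h, from 4265 to 639 for their difference, from 5972 to 1164 for WT_R18 against WT_R1 and from 406 to 4 for the pif3 mean with no scaling, when 75.8% of calls at 18 h were higher against 41% here. With the 25S rRNA covariate they were 620 at 1 h, 2172 for the difference, 2929 for WT_R18 against WT_R1 and 251 for the pif3 mean, and with only the groups compared 728 at 1 h and 229 for the pif3 mean. In the smaller comparisons, pif3 D0 gave 67 calls here and 0 to 258 elsewhere, pif3 D1 9 and 2 to 15, WT_D18 against WT_D0 10 and 0 to 570, WT_D1 against WT_D0 0 and 0 to 112, and pif3_D1 against pif3_D0 42 and 0 to 188. A minimum mean of 50 units removed SPCH and FMA, and neither has another probe set, so those alternatives gave no value.

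The replicate numbers did not pair the arrays: deviations of same-numbered arrays correlated at -0.25 to 0.26 over 8 pairs of groups, and in none did every array correlate best with its own number. With the replicate block the 18 h changes were 1.47 for SPCH (limma adjusted p = 0.0057) and 0.59 for FMA (0.021), 7838 probe sets were called, and no call of SPCH or FMA changed. Dim signal limits the sizes: SPCH lay below the offset in 16 of 21 arrays.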
